A study of Mus musculus with 12 samples.

Results

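The 46 genes described here encode the machinery of mitosis. They were chosen by gene name, 1 probe per gene (the brightest over all arrays), and kept where the scanner called that probe well above background on 3 or more of 12 arrays. All 46 have such a probe, among 13480 named genes and 15541 features tested on the array, and 43 of the 46 were well above background on all 12 arrays. They lie on 16 chromosomes, with at most 7 on any one (chromosome 2). The rule itself used only names and brightness, but the list was drawn up with earlier results of these data known.

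In a dividing cell, cyclin B and the kinase Cdk1 start mitosis. Condensin then compacts the chromosomes, kinetochores attach them to the spindle, and the spindle checkpoint holds back the anaphase-promoting complex until all are attached. This complex then destroys securin and cyclin B, and the contractile ring divides the cell. Transcripts of these genes are made mainly in the G2 and M phases, so in a cell population they are commonly read as a sign of how many cells are cycling. Regulatory T cells (Treg), the Foxp3-expressing CD4 T cells that restrain immune responses, are known to divide more in inflamed tissue than at rest.

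The 12 one-colour Agilent arrays fell into 4 groups of 3, all from C57BL/6 mice. VERT-X mice carry an EGFP reporter of Il10, and their Treg from pooled subcutaneous MC38 tumours (a colon carcinoma line), 2 weeks after implantation, were split into IL10+ and IL10- cells. FoxP3-EGFP mice gave total Treg from pooled MC38 tumours and, from mice without tumours, spleen Treg. All were sorted as CD45+, CD11b-low, CD3+CD4+ cells. Treg were then taken by EGFP in FoxP3-EGFP mice but by CD25 and CD120b in VERT-X mice, so strain and gate cannot be told apart. By the scan days in the file headers, all 6 FoxP3-EGFP arrays and replicate 1 of the IL10+ group were scanned on 1 day and the other 5 VERT-X arrays on another, so scan day and strain are nearly confounded too. Tissue and the presence of a tumour in the mouse cannot be told apart either. Ages are not given in the sources used here.

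A level is log2 of the processed signal minus the 75th percentile of that array, so 0 stands for that percentile. Levels are compared between arrays for 1 gene, never between genes. A difference of 1 is a 2-fold difference. A gene was called where limma's adjusted p, over all 15541 features, was under 0.05. From 42.1% to 65.2% of probes lay well above background per array, and the number of arrays limits the precision.

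The labelled cell type was checked against 8 Treg and CD4 T cell markers. None of the 6 FoxP3-EGFP arrays had a Foxp3 probe well above background, whereas its level lay between 2.64 and 4.65 on the 6 VERT-X arrays. By this 1 probe no Foxp3 signal was seen in cells labelled as sorted on FoxP3-EGFP, and the reason was not tested. Foxp3 was the only one of the 8 markers to lie wholly lower in total tumour than on the VERT-X arrays. Ctla4 was at 5.42 to 6.02 in total tumour and 4.84 to 5.33 on the VERT-X arrays, and Ikzf2 at 2.55 to 2.84 and 1.79 to 2.58. Total tumour Treg and spleen Treg are used below as the labels of these arrays, not as a measured identity. Cd3e, a chain of the T cell receptor complex, was well above background on all 12 arrays. In other markers 3 arrays stood apart. On spleen replicate 2 Treg markers were low, with Ctla4 at -0.89 against 3.12 and 3.29 on the other spleen arrays and Il2ra at -3.90 against 0.72 and 1.27. Tnfrsf1b was at 0.64 against 2.67 and 2.52, and Ikzf2 at -1.23 against 3.12 and 3.27. The T cell markers Cd3e, Cd3g and Cd4 were not low there, at 3.42, 6.81 and 1.49 against at most 3.24, 6.55 and 0.69. On replicate 1 of the IL10+ group and replicate 1 of the IL10- group, Cd3e was at 1.73 and 2.08, against 4.80 to 5.87 on the other VERT-X arrays. Cd4 was at -0.17 and 0.25 against 2.16 to 2.84, while Cd3g differed less, at 5.40 and 5.39 against 5.70 to 6.10. The 6 FoxP3-EGFP arrays had Cd3e at 2.62 to 3.42, also below those other VERT-X arrays. Results are given with and without these arrays below.

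Nearly the whole mitotic programme was higher in tumour Treg than in spleen Treg. In total tumour against spleen Treg, 42 of 46 genes rose, 1 fell (Smc4) and 3 were not called. The background was 22.0% of all features higher and 20.3% lower. The median difference was 1.55, a 2.93-fold rise, while the median of all features was -0.01. In bulk RNA a larger share of dividing cells cannot be told apart from more of each transcript per dividing cell. IL10+ tumour Treg showed 43 genes higher and 2 lower than spleen (background 23.9% and 26.9%), with a median of 1.61. IL10- tumour Treg showed 42 higher and 2 lower (background 24.3% and 24.7%), with a median of 1.71. The 3 comparisons share the spleen arrays and are not independent of each other. The number of calls depended on the background correction and on the slide. With normexp correction 5, 11 and 15 genes were called in the total, IL10+ and IL10- comparisons (median differences 1.18, 0.62 and 1.48). These are 10.9%, 23.9% and 32.6% of the 46, against 12.0%, 33.4% and 14.4% of all features. In either direction the share called was thus near the background in the total comparison and below it in the IL10+ one. All but 2 of the called genes, both in the IL10+ comparison, were higher in tumour. The shares called higher were 10.9%, 19.6% and 32.6% of the 46, against 6.76%, 12.6% and 8.09% of all features. With the slide as a block 18, 7 and 4 genes were called, all higher (medians 1.54, 1.93 and 2.19). Spleen shared a slide with total tumour replicate 3 only, so all 3 differences run through that array. Those of the VERT-X groups run further through IL10+ replicate 1 (slide 2), and that of IL10- cells also through IL10+ replicate 2 (slide 1). The calls are 39.1%, 15.2% and 8.70% of the 46. Of all features 21.8%, 15.4% and 7.77% were called in either direction and 12.1%, 7.87% and 4.18% higher. In both VERT-X comparisons the share was near the background of either direction and above that of higher calls, on only 7 and 4 genes. With the scan day as a block 44, 42 and 39 genes were called, against 46.1%, 44.7% and 34.5% of features, but IL10+ replicate 1 is the 1 VERT-X array that shares a scan day with spleen. That array alone lay above the spleen mean for 44 of 46 genes, with a median of 1.94.

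**Figure D1:**
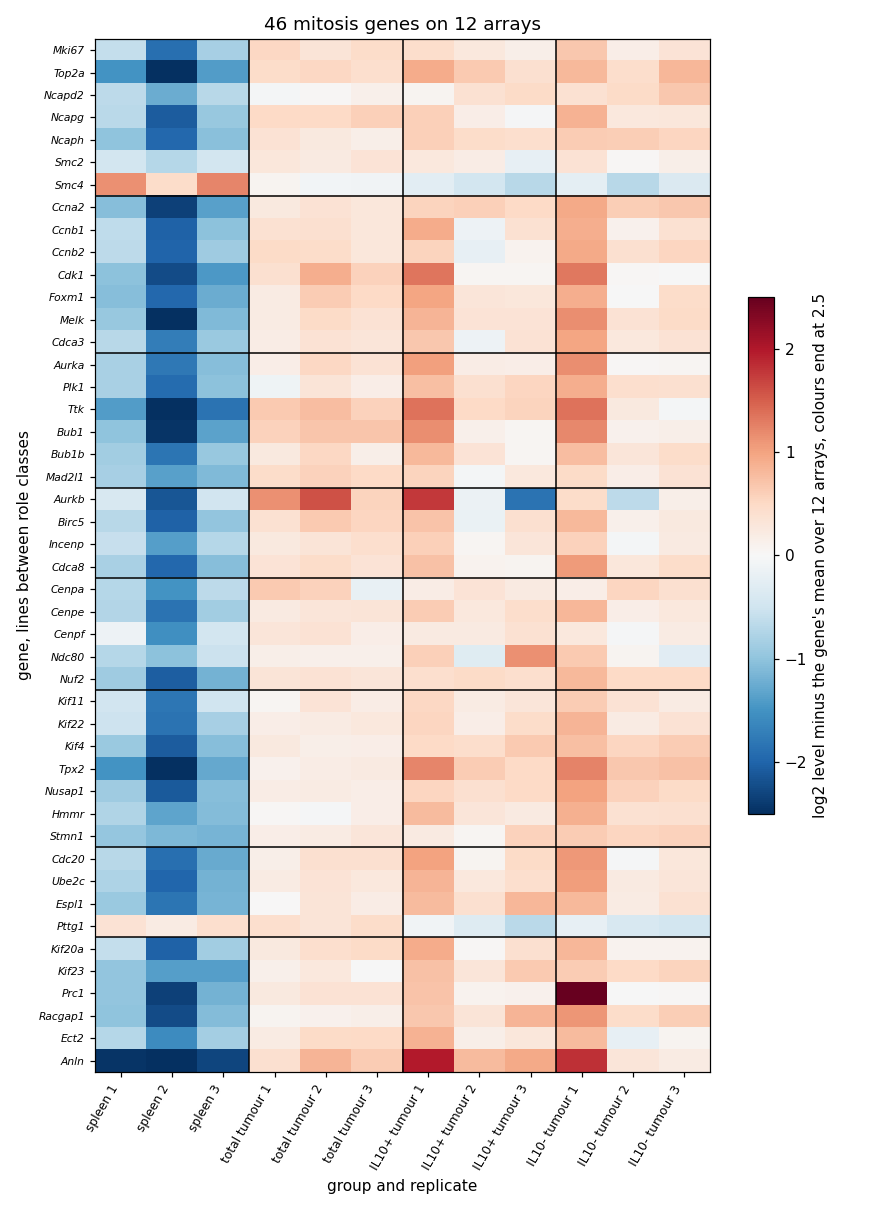
Level of each of the 46 mitosis genes (rows, in role classes) on each of the 12 arrays (columns), as log2 level minus the gene's mean over all arrays; blue is lower and red higher, and colours end at 2.5 either way. The 3 spleen columns are blue except for Smc4 and Pttg1, spleen replicate 2 is the darkest, and replicate 1 of the IL10+ and IL10- groups is the reddest of its group for 36 and 43 genes.

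The groups were also set against each other without a model. For 44 genes every total tumour array lay above every spleen array, for Smc4 every one lay below, and Pttg1 overlapped. The same separation upward was found for 32.4% of features and downward for 33.4%. Against spleen, both IL10+ and IL10- arrays lay wholly above for 43 genes and wholly below for 2 (Smc4 and Pttg1), and Aurkb overlapped. The background for IL10+ was 26.9% above and 30.9% below, and for IL10- it was 30.1% and 31.3%.

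Genes that rise together in G2 and M phase are known to carry 2 short promoter elements, the cell cycle homology region (CHR), bound by the DREAM and B-Myb complexes, and the CCAAT box, bound by NF-Y. RefSeq windows of 300 bases (250 before to 50 after the start, GRCm38.p6) were at hand for 38 of the 46 genes. The letters TTTGAA or TTCGAA, searched on both strands as the CHR, were in 29 of these 38 windows (76.3%) and in 19.4% of the windows of all 27025 genes. CCAAT on either strand was also in 29 windows (76.3%), against 37.9% of all genes, and both were in 27 (71.1%), against 7.70%. In 1 gene a CHR and a CCAAT match shared bases. In 26 of the 29 genes a CHR match began within 40 bases of the start.

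The 150 bases before the start are shown for 4 genes that hold both elements and rose in tumour Treg, and for Pttg1, which holds neither and did not rise. Each runs 5′ to 3′ in the gene's direction, with CHR and CCAAT matches of either strand in capitals. The windows are chr10:69352913-69353062 (Cdk1, minus strand), chr11:99024190-99024339 (Top2a, minus), chr2:164769779-164769928 (Ube2c, plus), chr4:118437344-118437493 (Cdc20, minus) and chr11:43425982-43426131 (Pttg1, minus).
Cdk1: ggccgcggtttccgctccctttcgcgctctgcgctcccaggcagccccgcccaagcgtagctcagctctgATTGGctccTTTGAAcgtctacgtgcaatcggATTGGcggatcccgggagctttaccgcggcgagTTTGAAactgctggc
Top2a: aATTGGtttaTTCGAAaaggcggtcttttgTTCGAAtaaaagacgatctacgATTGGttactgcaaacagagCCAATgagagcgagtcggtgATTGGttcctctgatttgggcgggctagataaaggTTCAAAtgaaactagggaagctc
Ube2c: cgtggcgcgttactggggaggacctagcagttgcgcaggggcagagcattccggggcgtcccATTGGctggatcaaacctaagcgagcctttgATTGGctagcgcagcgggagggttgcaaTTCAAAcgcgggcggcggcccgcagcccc
Cdc20: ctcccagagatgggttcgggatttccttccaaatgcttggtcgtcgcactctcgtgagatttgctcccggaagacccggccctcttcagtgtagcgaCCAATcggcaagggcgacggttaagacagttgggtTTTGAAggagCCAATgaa
Pttg1: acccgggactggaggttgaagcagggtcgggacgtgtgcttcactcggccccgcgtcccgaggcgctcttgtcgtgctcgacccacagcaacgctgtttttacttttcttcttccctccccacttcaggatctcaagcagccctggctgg

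Nearly all genes with a window rose, so whether the letters sort the genes by response cannot be read here. Smc4, which fell, and Aurkb, which was not called, were among the 8 genes without a window. Of the 29 genes with a CHR match, 28 rose in total tumour against spleen, with a median difference of 1.54. Of the 9 without one, 8 rose, with a median of 1.59, and among the 7 with neither element 6 rose (Ncaph, Melk, Mad2l1, Birc5, Nuf2 and Nusap1). Pttg1 was the other. A match is a description of the sequence and not a binding site.

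Among the genes of chromosome structure, Mki67, which coats mitotic chromosomes, was at 3.77, 2.48 and 3.54 in spleen Treg and at 4.89, 4.69 and 4.83 in total tumour Treg. It was at 4.82, 4.63 and 4.52 in IL10+ cells and at 5.04, 4.54 and 4.71 in IL10- cells. All 9 tumour arrays lay above the spleen arrays, and the difference of total tumour from spleen was 1.54 ± 0.30 (SE, limma adjusted p = 0.00241).

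Top2a, the topoisomerase that untangles sister DNA, was at 0.34, -0.72 and 0.43 in spleen, 2.28, 2.35 and 2.24 in total tumour, 2.76, 2.48 and 2.23 in IL10+ and 2.64, 2.26 and 2.65 in IL10- Treg. It rose by 2.27 ± 0.29 (SE, limma adjusted p = 0.000215), a 4.83-fold rise, in total tumour, and by 2.48 and 2.50 in the IL10+ and IL10- groups. It was among the 3 genes with the smallest p in both VERT-X comparisons with spleen. A dimmer Top2a probe gave 1.49 in total tumour against spleen (limma adjusted p = 0.0572).

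Condensin was split. Its subunits Ncapd2, Ncapg and Ncaph and the core ATPase Smc2 rose in total tumour Treg, by 0.91, 1.76, 1.58 and 0.83. Smc4, the other core ATPase and the partner of Smc2, was at 4.18, 3.51 and 4.26 in spleen and at 3.11, 2.98 and 2.96 in total tumour. It was at 2.77, 2.58 and 2.35 in IL10+ and at 2.79, 2.34 and 2.68 in IL10- Treg. All 9 tumour arrays lay below all 3 spleen arrays. Smc4 fell by 0.96 ± 0.22 (SE, limma adjusted p = 0.00589) in total tumour, by 1.42 in IL10+ and by 1.38 in IL10- cells. A second Smc4 probe fell by 0.90 in IL10- and by 0.86 in IL10+ cells (limma adjusted p = 0.0321 and 0.0374), and its -0.60 in total tumour was not called (limma adjusted p = 0.144). With the slide as a block, where these differences run through total tumour replicate 3, no Smc4 difference was called (limma adjusted p = 0.073, 0.117 and 0.202 for total, IL10+ and IL10-). Over all alternatives the limma adjusted p ran from 0.00125 to 0.144, 0.000159 to 0.117 and 0.000211 to 0.202.

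All 7 cyclins and regulators rose in each comparison with spleen. Cdk1, the kinase that starts mitosis, was at 0.28, -0.93 and -0.14 in spleen and at 1.71, 2.22 and 1.88 in total tumour Treg. It was at 2.65, 1.36 and 1.36 in IL10+ and at 2.62, 1.33 and 1.30 in IL10- Treg. The tumour arrays were all above spleen, and replicate 1 was the high array in both VERT-X groups. The difference of total tumour from spleen was 2.20 ± 0.47 (SE, limma adjusted p = 0.00427).

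Ccnb1, its cyclin B1 partner, was at 0.44, -0.95 and 0.05 in spleen and at 1.46, 1.48 and 1.36 in total tumour. It was at 2.00, 0.95 and 1.45 in IL10+ and at 1.97, 1.18 and 1.46 in IL10- Treg. It rose by 1.59 ± 0.37 in total tumour (SE, limma adjusted p = 0.00710), and replicate 1 was again the high array of both VERT-X groups. Foxm1, a transcription factor that switches on G2 and M genes, was at -0.46, -1.36 and -0.65 in spleen and at 0.80, 1.24 and 1.09 in total tumour. In IL10+ cells it was at 1.58, 0.91 and 0.88, and in IL10- cells at 1.51, 0.59 and 1.05. The groups of tumour and spleen did not overlap, and the rise in total tumour was 1.86 ± 0.31 (SE, limma adjusted p = 0.00109). Ccna2 (cyclin A2), Ccnb2 (cyclin B2), Melk (a kinase) and Cdca3 (an adaptor for destruction of the Cdk1 inhibitor Wee1) rose by 1.40 to 1.89 in total tumour.

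The 6 mitotic kinases and checkpoint genes also rose in every comparison with spleen. Plk1, polo-like kinase 1, was at 1.26, 0.15 and 1.05 in spleen and at 1.97, 2.40 and 2.24 in total tumour. It was at 2.83, 2.47 and 2.61 in IL10+ and at 2.99, 2.49 and 2.47 in IL10- cells. All tumour arrays were above spleen, by 1.38 ± 0.28 in total tumour (SE, limma adjusted p = 0.00342). Mad2l1, the checkpoint protein that restrains Cdc20, was at 0.78, 0.26 and 0.52 in spleen and at 2.08, 2.19 and 2.11 in total tumour. It was at 2.17, 1.56 and 1.89 in IL10+ and at 2.09, 1.79 and 1.98 in IL10- cells. Tumour and spleen did not overlap, and its rise of 1.61 ± 0.19 had the second-smallest p of the 46 genes in total tumour (limma adjusted p = 0.000144). Ttk, the checkpoint kinase Mps1, was not well above background on any spleen array and was on all 9 tumour arrays. Its spleen level is therefore a bound set by the dimmest probes above background. Against it Ttk was at least 3.75-fold higher in total tumour, 4.11-fold in IL10+ and 3.38-fold in IL10- Treg. These bounds were not tested. The fitted differences of 2.65, 2.78 and 2.50, which use the dim spleen signal as measured, were called (limma adjusted p = 0.000774, 0.000409 and 0.000845). Aurka (the spindle pole kinase Aurora A) and the checkpoint kinases Bub1 and Bub1b rose by 1.57, 2.25 and 1.51 in total tumour.

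In the chromosomal passenger complex 3 of 4 genes rose. Birc5 (survivin), Incenp (its scaffold) and Cdca8 (borealin) differed from spleen by 1.75, 1.22 and 1.66 in total tumour. Birc5 was at 3.53, 2.20 and 3.23 in spleen and at 4.60, 4.87 and 4.76 in total tumour. It was at 4.94, 4.05 and 4.62 in IL10+ and at 5.04, 4.34 and 4.46 in IL10- cells. No tumour array overlapped spleen (SE 0.35, limma adjusted p = 0.00308). Aurkb, the Aurora B kinase of the same complex, had the largest SE of the 46 genes and was at -2.71, -4.45 and -2.78 in spleen and at -1.16, -0.72 and -1.76 in total tumour. It was at -0.54, -2.45 and -4.15 in IL10+ and at -1.86, -2.97 and -2.17 in IL10- cells. It was not well above background on spleen replicate 2 or IL10+ replicate 3, the lowest arrays of their groups. Its difference of 2.10 ± 0.81 in total tumour missed the threshold (SE, limma adjusted p = 0.0610, and 0.0182 to 0.200 over the alternatives).

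At the kinetochore, Cenpa (the centromeric histone), Cenpe (a motor), Cenpf and Nuf2 rose in all 3 comparisons, by 0.99 to 1.71 in total tumour. Ndc80, the partner of Nuf2 in the microtubule-binding complex, was at -1.21, -1.52 and -1.04 in spleen and at -0.34, -0.37 and -0.36 in total tumour. It was at 0.10, -0.79 and 0.64 in IL10+ and at 0.16, -0.43 and -0.77 in IL10- cells. All tumour arrays lay above spleen, with SDs of 0.72 and 0.47 in the IL10+ and IL10- groups. Its differences of 0.90 in total tumour and 0.91 in IL10- cells were just outside the threshold, and 1.24 in IL10+ cells was inside it (limma adjusted p = 0.0589, 0.0506 and 0.0129).

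All 7 spindle motors and microtubule proteins rose in each comparison. Stmn1 (stathmin), which destabilises microtubules and is switched off at mitotic entry, was at 4.34, 4.19 and 4.15 in spleen and at 5.47, 5.50 and 5.60 in total tumour. It was at 5.53, 5.35 and 5.87 in IL10+ and at 5.93, 5.84 and 5.87 in IL10- cells. Spleen replicate 2 did not stand apart for this gene, and its difference of 1.30 ± 0.15 had the smallest p of the 46 in total tumour (SE, limma adjusted p = 0.000123). Tpx2, the activator of Aurora A, rose by 2.00, and the kinesins Kif11, Kif22 and Kif4 and the spindle proteins Nusap1 and Hmmr by 1.11 to 1.55.

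Of 4 anaphase genes 3 rose. Cdc20 (activator of the anaphase-promoting complex), Ube2c (its ubiquitin-conjugating enzyme) and Espl1 (separase) rose by 1.59, 1.58 and 1.48 in total tumour. Pttg1 (securin), the inhibitor of separase, was at 3.20, 3.05 and 3.26 in spleen and at 3.26, 3.17 and 3.30 in total tumour. It was at 2.76, 2.53 and 2.17 in IL10+ and at 2.64, 2.44 and 2.39 in IL10- Treg. The spleen and total tumour arrays overlapped, with a difference of 0.07 (95% interval -0.29 to 0.44; -0.13 with normexp correction), while all 6 VERT-X arrays were lower than either. Against spleen Pttg1 fell by 0.68 ± 0.16 in both IL10+ and IL10- cells (SE, limma adjusted p = 0.00621 and 0.00691). With the scan day as a block, where the comparison with spleen runs through IL10+ replicate 1, these values were -0.41 and -0.27 and neither was called (limma adjusted p = 0.122 and 0.436). Over all alternatives the adjusted p ran from 0.00183 to 0.451 for IL10+ and from 0.00291 to 0.501 for IL10- cells.

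All 6 cytokinesis genes rose. Kif23, the motor of centralspindlin, was at -0.01, -0.41 and -0.40 in spleen and at 1.10, 1.24 and 0.96 in total tumour. It was at 1.70, 1.27 and 1.62 in IL10+ and at 1.60, 1.47 and 1.52 in IL10- cells. The groups were well apart, by 1.37 ± 0.17 in total tumour and by 1.80 ± 0.17 in each VERT-X group (SE, limma adjusted p = 0.000172, 2.24e-05 and 2.66e-05). Anln (anillin, a scaffold of the contractile ring) differed from spleen by 3.27, 3.88 and 3.42 in the total, IL10+ and IL10- comparisons. Its probe was not well above background on spleen replicate 2, so these sizes rest in part on a dim signal, and a second, dimmer Anln probe differed by 0.60 in total tumour (limma adjusted p = 0.282). Prc1, which bundles the central spindle, was at 6.04 on IL10- replicate 1 against 3.42 and 3.46 on the other IL10- arrays. Its rise of 1.82 ± 0.63 in total tumour was just inside the threshold (SE, limma adjusted p = 0.0412, and 0.00208 to 0.341 over the alternatives). Kif20a, Racgap1 and Ect2, a motor, the partner of Kif23 and the activator of RhoA, rose by 1.53, 1.55 and 1.44.

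**Figure D2:**
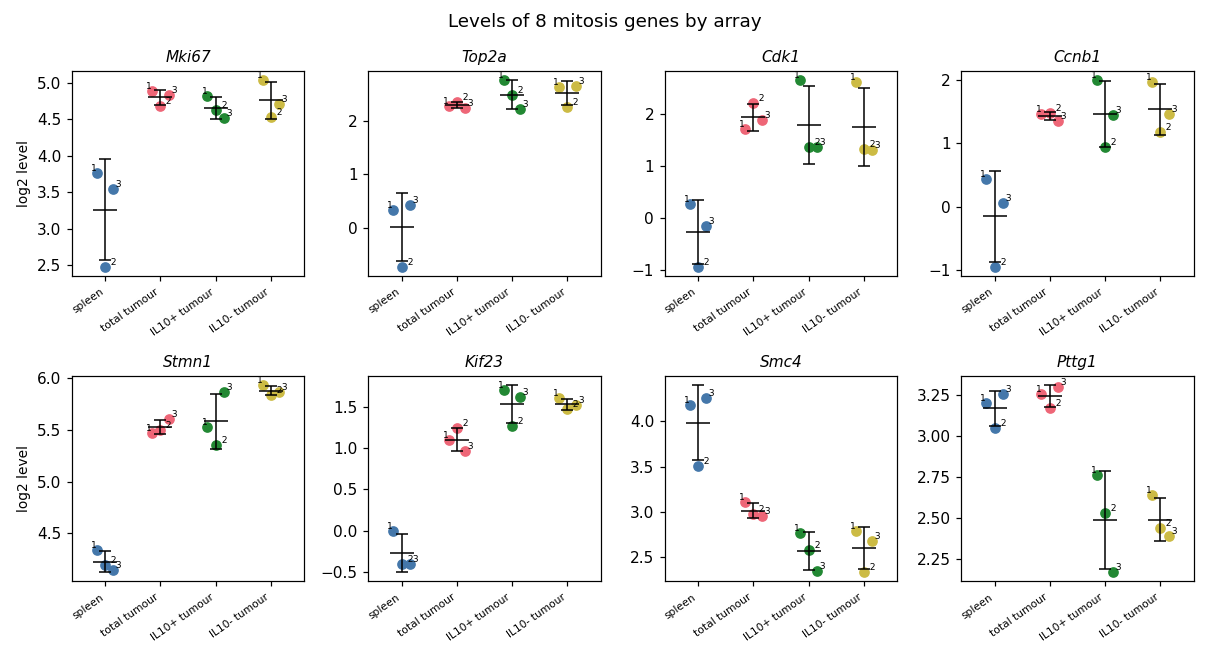
Log2 level of 8 genes by array: points are arrays numbered by replicate, and bars are the group mean and SD (n = 3). For Mki67, Top2a, Cdk1, Ccnb1, Stmn1 and Kif23 the 9 tumour arrays lie above the 3 spleen arrays, Smc4 runs the other way, and for Pttg1 the 6 VERT-X arrays lie below total tumour and spleen.

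Spleen replicate 2 was the lowest spleen array for 45 of the 46 genes, a position it held for 32.0% of all features. The genes lay 1.02 (median) below the mean of the other spleen arrays, while all features lay 0.07 above. It is also the array with the low Ctla4, Il2ra, Tnfrsf1b and Ikzf2 levels, whose part in the result was not tested. Without it, 41 genes rose (background 18.8%) and Smc4 fell in total tumour, and the median difference was 1.21 rather than 1.55. Mki67 then differed by 1.15, Cdk1 by 1.86 and Top2a by 1.90. Within slide 4, which held total tumour replicate 3 and all spleen arrays, 45 of 46 genes were higher in tumour, with a median of 1.54, and against spleen replicates 1 and 3 alone the count was again 45, with a median of 1.19.

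Markers of other cells moved with the comparison. Summed over 8 fibroblast and endothelial genes, levels were 1.67 to 2.76 in spleen and 6.43 to 8.08 in the tumour groups, and over 10 macrophage and monocyte genes 6.25 to 7.19 and 8.68 to 9.68. In total tumour 6 of the 8 fibroblast and endothelial genes were called higher and 1 lower (Pecam1), and all 10 macrophage genes were called higher. Summed over 7 carcinoma markers, levels were -0.92 to 1.06 in spleen and 6.89 to 8.20 in the tumour groups. The probe named Mela was not above background on any spleen array and was at 6.85 to 8.19 on the tumour arrays. Of the 4 carcinoma markers tested, 3 were called higher in total tumour, namely Mela, Krt18 and Cdh1. For Krt18 and Cdh1 the limma adjusted p was 0.0277 and 0.0353, and Epcam was not called (limma adjusted p = 0.31). Krt19, Krt8 and Cldn7 were not above background on any total tumour array. On the VERT-X arrays this held for Cldn7 in both groups, for Krt19 in IL10+ cells only and for Krt8 in neither group. B and plasma cell sums ran the other way, at 6.23 to 7.66 in spleen and 3.98 to 4.25 in tumour, with 7 of 9 genes called lower in total tumour. The other 2, Sdc1 and Xbp1, were higher by 1.13 and 0.40, not called there. Sdc1 was called higher in both VERT-X groups and Xbp1 in IL10- cells, and Xbp1 alone was at 3.61 to 3.90 on the tumour arrays. Erythroid sums were also higher in spleen, at 8.29 to 9.59, and at most 4.62 in tumour. Sums of 6 CD8 T and NK cell genes were 4.69 to 5.91 in spleen and 5.58 to 7.13 in tumour, but in total tumour 5 of the 6 were lower than in spleen, 3 of them called (Cd8a, Cd8b1 and Klrb1c), with a median of -1.29. Nkg7 was the 1 called higher, by 2.66. MC38 cells, macrophages and splenic erythroblasts can divide too, and the part of any of them in the mitosis gene values was not tested.

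Between IL10+ and IL10- tumour Treg no mitosis gene was called, and none had an unadjusted p under 0.05. The background was 0.0515% of features called, 8 in all, and 4.61% at the unadjusted threshold. Differences ran from -0.56 (Prc1) to 0.46 (Anln), with a median of -0.07, and 33 of 46 were negative. For 36 genes the 95% interval lay within 1 either side of 0, so a 2-fold difference was outside it. For the other 10 (Ccnb2, Cdk1, Melk, Ttk, Bub1, Aurkb, Cdca8, Ndc80, Prc1 and Anln) the interval reached past a 2-fold difference. Mki67 differed by -0.10 (95% interval -0.76 to 0.56). With normexp correction the median was -0.89 and 39 genes were negative, none of them called. That correction narrowed the spread of levels on IL10+ replicates 2 and 3 and total tumour replicate 3 (SD over features 1.12, 0.98 and 1.54, against 2.18 to 2.50 on the other arrays).

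The genes with the smallest p were Stmn1, Ccnb2 and Ncapd2. Stmn1, whose levels are given above, differed by -0.30 ± 0.15 (SE, limma unadjusted p = 0.0747, adjusted p = 1). Ccnb2 was at 3.68, 2.93 and 3.21 in IL10+ and at 4.07, 3.53 and 3.67 in IL10- cells, and the condensin subunit Ncapd2 was at 3.89, 4.19 and 4.30 against 4.20, 4.30 and 4.49. In both the groups overlapped, with differences of -0.48 ± 0.34 and -0.20 ± 0.19 (SE, limma unadjusted p = 0.181 and 0.298). Only for Ccna2 and Nuf2 did all IL10- arrays lie above all IL10+ arrays, and for no gene the reverse. The background was 5.55% and 1.80% of features.

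**Figure D3:**
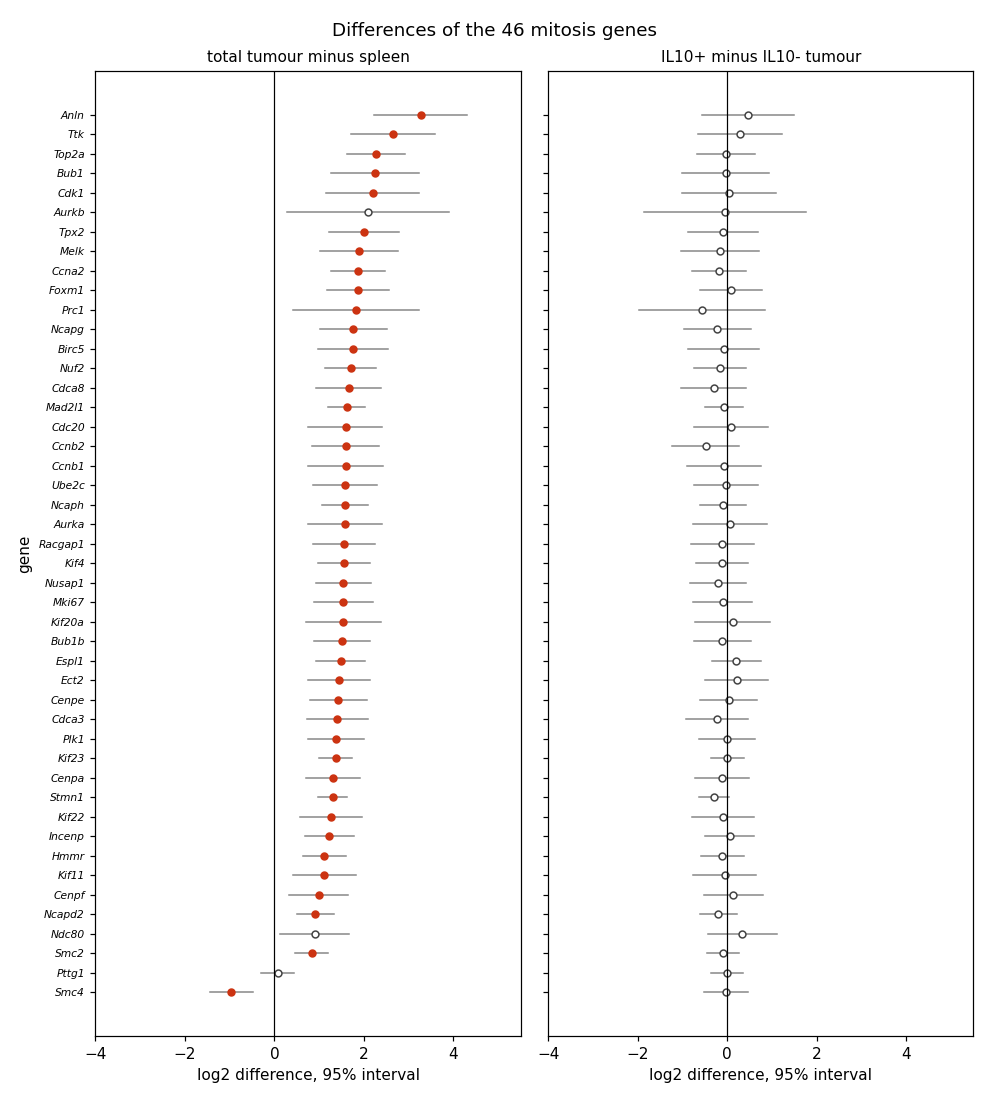
Log2 difference of each gene with its 95% interval from limma (filled points: adjusted p under 0.05), total tumour minus spleen on the left and IL10+ minus IL10- tumour on the right. Left, 42 filled points lie above 0 and Smc4 below; right, no point is filled and all lie between -0.56 and 0.46.

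Arrays within a VERT-X group differed more than the groups did. IL10- replicate 1 was the highest IL10- array for 43 genes and IL10+ replicate 1 the highest IL10+ array for 36, positions they held for 46.6% and 36.6% of all features, by a median of 0.52 and 0.44 over the other arrays of their group. These are the arrays with the lowest Cd3e of the VERT-X groups. Their summed T cell markers were 6.68 and 6.62 against 7.36 to 7.85, and their fibroblast sums 7.77 and 8.08 against 6.43 to 7.08. Their carcinoma sums were 7.90 and 8.20 against 7.03 to 7.77, but rest almost wholly on Mela, at 7.89 and 8.19. Epcam (-0.66 and -0.71) and Krt18 (-0.95 and -0.73) were lower there than on every other VERT-X array. Cdh1 (-2.93 and -2.60) lay within the range of the others. The part of these in the mitosis gene levels was not tested. With both arrays left out, still no gene was called between IL10+ and IL10-, and the median was -0.05. The median difference from spleen then fell to 1.39 for IL10+ and 1.51 for IL10- cells, with 45 and 43 genes called (background 56.6% and 53.1%). Within slide 1, IL10+ replicate 2 lay 0.21 (median) below the mean of the 3 IL10- arrays, a mean that includes the high replicate 1. The median level of the 46 genes was 1.87 on IL10+ replicate 2 and 2.59, 1.87 and 1.98 on IL10- replicates 1, 2 and 3.

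VERT-X tumour Treg (the mean of IL10+ and IL10-) differed from total tumour Treg in 1 of 46 genes, Pttg1, against a background of 1.13% of features. Pttg1 was lower by 0.75 ± 0.14 in VERT-X cells (difference -0.75, SE, limma adjusted p = 0.0451). The median of the 46 was 0.15. All 6 VERT-X arrays lay above the 3 total tumour arrays for 10 genes (background 4.34%) and below for 2, Smc4 and Pttg1 (background 8.56%). For Tpx2 the difference was 0.66 ± 0.30 and for Kif23 0.43 ± 0.14, and neither was called (SE, limma adjusted p = 0.257 and 0.147). With the VERT-X replicates 1 both left out, the median was -0.07 and Pttg1 differed by -0.86 (limma adjusted p = 0.00469). With the scan day as a block it differed by -0.41 (limma adjusted p = 0.357), and over all alternatives the adjusted p ran from 0.00469 to 0.864.

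Other parts of the cell cycle were set beside the mitosis genes in total tumour against spleen, where 22.0% of all features were called higher and 20.3% lower. Of 28 DNA replication genes 27 rose and none fell, with a median of 1.45. Cdc6, which loads the replicative helicase, rose by 2.01. Of 14 G1 cyclins, kinases and E2F factors 9 rose, with E2f1 at 2.07 and Ccne2 (cyclin E2) at 2.01. Of 10 inhibitors of cyclin-dependent kinases and pocket proteins 4 rose, and these included Cdkn1a (p21) by 5.27 and Cdkn2b (p15) by 5.57.

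In 3 other lists at most 3 genes were called, and such counts, like the 4 of 10 inhibitors, are too small to set apart from the shares of all features. Of 8 tested genes of the DREAM and B-Myb complex 3 rose, Mybl2 (B-Myb, itself an E2F target) by 2.01 and Lin54, the subunit that binds the CHR, by 0.89. Of 13 core and activating subunits of the anaphase-promoting complex 1 rose (Fzr1, by 0.48) and 1 fell (Cdc23, by 0.59). Of 9 cohesin genes, the ring that holds sister chromatids together, none rose and 3 fell, Nipbl (its loader) by 1.21 and Stag2 by 0.88. The median of all features was -0.01. Between IL10+ and IL10- Treg no DNA replication gene was called. Their median was -0.29 there, and 27 of 28 differences were negative. An unadjusted p under 0.05 was found for 6 of 28, against 4.61% of all features.

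**Figure D4:**
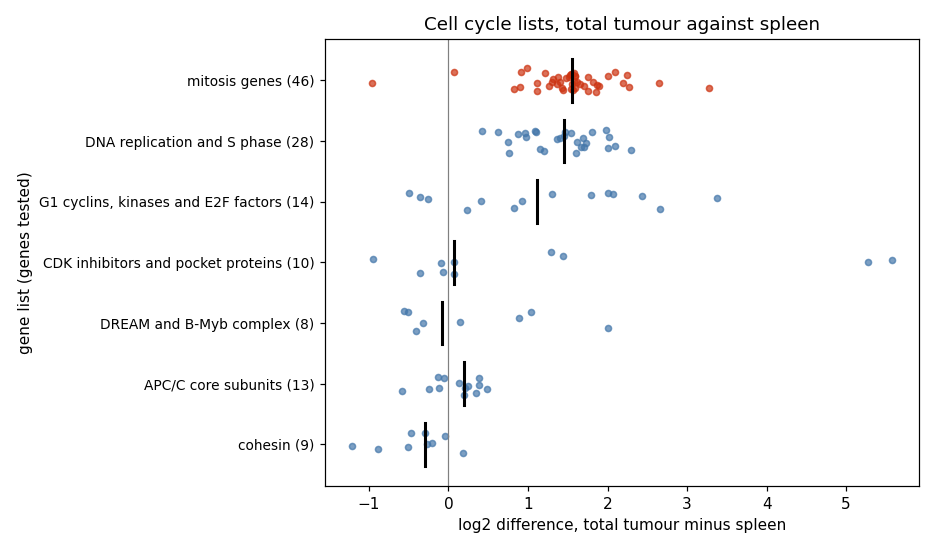
Log2 difference, total tumour minus spleen, of each gene (points) in the mitosis set and in 6 other cell cycle lists, with the number of genes tested in brackets; the black bar is the median. Mitosis and DNA replication genes centre on 1.55 and 1.45, cohesin on -0.29, and 2 inhibitor genes, Cdkn1a and Cdkn2b, lie above 5.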

How the data were processed

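Deposited spot intensities of 1 channel per array came from Agilent Feature Extraction, version 9.5.3.1 as the headers give it. Per the file headers the processed intensity is background-subtracted within an array and not normalized between arrays. The authors' value table holds deposited log10 values of the same arrays (Pearson r with log10 of the processed intensity from 0.995 to 1.00, column medians 1.33, not centred per gene). How it was normalized is not stated, and it served as an alternative only.

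Control and outlier-flagged spots were left out and 43379 spots averaged to 41174 probes. Probes were named through RefSeq (assembly GRCm38.p6), by accession (23374), symbol (6733) or synonym (2919). A further 1428 kept the file's name and 6720 had none. Cdk1 and Ndc80 carry the older names Cdc2a and Kntc2. Each level is log2(processed intensity) less that array's 75th percentile of it. Features well above background on at least 3 arrays were fitted over all 12 arrays with limma 3.58.1 (lmFit and eBayes in R 4.3.3, two-sided tests), using statmod 1.5.0 and data.table (version 1.17.8). Matplotlib 3.10.9 under Python 3.11.15 drew the figures. Benjamini-Hochberg adjustment ran over 15541 features, in 5 comparisons. Promoter windows are those of RefSeq.

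Per-array values are given for 8 genes fixed by name, for the 3 called genes with the smallest p per comparison (if none was called, the smallest p) and for called genes against the majority direction. Other members shown by array, and the printed promoters, were chosen after their values were seen. From other lists the 2 genes with the smallest p in total tumour against spleen are named. Of the genes so named, 1 is not reported here. The members and lists were chosen with earlier results of these data known.

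The labels say that tumours were pooled, but not how many mice a pool held or whether spleens were pooled, so p-values measure the spread between arrays. The series describes 3 experiments per population. On simulated data for total tumour against spleen (15541 features), 67, 67 and 66 features were changed by 1.5-fold, 2-fold and 4-fold. Of these 1.49%, 20.9% and 77.3% were recovered, with 5 false calls. Far fewer features changed there than were called in the real comparison, and the noise was independent, without slide or scan day effects. The shares recovered are therefore not those to be had in the real comparison. Alternatives were normexp background correction, quantile normalization, the value table, other filters and probe rules, blocks for replicate, slide and scan day, and leaving out arrays.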

Additional observations from a re-analysis of the deposited data

Results flagged for a closer look

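Pttg1 (securin) was marked because tumour Treg of the 2 reporter strains differed in their distance from spleen. Its level was 3.17 to 3.30 on the 3 total tumour arrays and 2.17 to 2.76 on the 6 VERT-X arrays, a difference of -0.75 on the log2 scale (limma adjusted p = 0.0451) with all 6 arrays lower. Groups of 3 arrays were not tested for an outlying array.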

How the results depend on the processing

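In sentences with 2 counts, the first is mitosis genes called and the second all features called. With normexp correction they were 5 and 1864 in total tumour against spleen, 11 and 5186 in IL10+ against spleen, 15 and 2245 in IL10- against spleen, and 0 and 3 in both IL10+ against IL10- and VERT-X against total tumour. The Pttg1 difference of total tumour from spleen, not called either way, turned from 0.07 to -0.13 there. With the slide as a block they were 18 and 3383, 7 and 2394, 4 and 1207, 0 and 0, and 0 and 3, in the same order of comparisons. The slide block chains differences within slides, and few arrays link the groups. No slide held both VERT-X and spleen arrays, so those comparisons run through the single arrays named above. For normexp correction the cause was not tested.

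In VERT-X against total tumour, where Pttg1 was the 1 gene called among 175 features, the counts were 0 and 74 with quantile normalization, 0 and 77 with the value table, 0 and 2 with no filter on dim probes, 0 and 5 with only the arrays compared, 0 and 14 with the slide as a random block and 0 and 6 with the scan day as a block. A filter of 6 arrays gave 334 features, and leaving out both VERT-X replicates 1 gave 2523, with Pttg1 still called. In IL10+ against IL10-, where 8 features were called, no filter gave 2, the scan day block 2, only the arrays compared 0, and leaving out both replicates 1 gave 0. Leaving out 1 array at a time gave 0 to 18 features in IL10+ against IL10-, and 0 to 1 mitosis genes and 2 to 1059 features in VERT-X against total tumour (1059 without IL10+ replicate 1). It gave 40 to 44 mitosis genes in total tumour against spleen and 43 to 45 in the other spleen comparisons. The scan day block and leaving out both replicates 1 were chosen after seeing the data.

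With the replicate number as a block, 3 features were called in IL10+ against IL10- and 0 mitosis genes and 11 features in VERT-X against total tumour, and no other count of calls moved by over 1.5 times. Whether arrays of the same number are pairs was not settled: deviations of such IL10+ and IL10- arrays correlated at 0.414, 0.431 and -0.236. The main fit treated all arrays as unpaired, and the replicate block set 1 effect per number across all 4 groups. If IL10+ and IL10- arrays are pairs, the SEs and intervals between them hold variation that a pair shares. Of 120 counts of mitosis genes and features each, 95 and 79 stayed within 1.5 times. Among the 95 are the 24 counts of IL10+ against IL10-, which were 0 in the main fit and in every alternative. Where the probe is dim (Aurkb, Ttk and Anln in spleen) the signal over background limits what a difference can show.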
